A study of Mus musculus with 6 samples.

Results

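The chitinases, the chitinase-like proteins and the resistin-like gene Retnla were followed in 6 lung RNA-seq libraries. The set was named by gene symbol as Chil3, Chil4, Chil1, Chia1, Chit1 and Retnla. It was selected on measured CPM values of these same 6 libraries, with no stated threshold, so the levels and differences of its genes are a description, and the p-values beside them are given to place each gene among all genes tested, not as independent support. Of the 6 genes, 4 (Chil3, Chil1, Chia1 and Retnla) matched a row by name among the 21900 genes, and all 4 passed the filter on low values. The expression of Chil4 and Chit1 was not analysed here, and they appear by sequence and position alone. Mice labelled wild type and mice labelled Cyp1b1 knockout (3 libraries each, 2 females and 1 male per label) had all eaten a high fat diet, also called a western diet, for 10 weeks. Cyp1b1 encodes a cytochrome P450 enzyme. The labels give no strain, allele or age. They also do not say that every library is a different mouse, so the tests weigh differences against library-to-library spread, which may be partly technical. Numbers 1 and 2 name the females and number 3 the male of each label, and pair nothing.

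Levels are in CPM (reads of a gene for each 1000000 assigned to any gene) and are not corrected for gene length. Depth, read from the smallest step between low values, was 20.2 to 27.6 in units of 1000000 assigned reads, and the level worth 3 reads was 0.109 to 0.148 CPM. Cyp1b1 itself ranged from 12.5 to 19.04 CPM under the label wild type and from 48.4 to 56.1 CPM under the label knockout. This goes against the direction of the labels, although a value per gene does not show which exons the reads cover. The words "labelled wild type" and "labelled knockout" are therefore used throughout, and every direction between the genotypes rests on these labels. The 2 male libraries stand apart in blood and immune genes. The summed level of 15 neutrophil markers was 277 to 343 CPM in the 4 females, but 629 CPM for the wild-type-labelled male and 7596 CPM for the knockout-labelled male, where all 15 were highest. Results that rest on the males are given with and without them.

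Chitinases are glycoside hydrolases that cut chitin, a polymer of insect, mite, worm and fungal surfaces that mammals do not make. Acidic mammalian chitinase (Chia1) and chitotriosidase (Chit1) are the active enzymes, whereas the chitinase-like proteins Chil1, Chil3 and Chil4 keep the fold but have lost the catalytic residue. In the mouse lung Chil3 (also called Ym1) is made in large amounts by alveolar macrophages, and it is made by monocytes and neutrophil precursors as well. Chil3, Chil4 and Retnla are known as genes that IL-4 and IL-13 turn on through the transcription factor STAT6, and are widely used as marks of alternatively activated macrophages. Retnla (FIZZ1 or RELM-alpha) is a small secreted protein of macrophages, airway epithelium and adipose tissue. Chil1 (BRP-39, the mouse counterpart of YKL-40) is secreted by macrophages, neutrophils and epithelium and carries no enzyme activity.

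The difference between enzymes and enzyme-like proteins is visible in the coding sequence, shown here because it sets the roles by which the genes are ordered. The lines give 24 coding bases, 5′ to 3′, from the GENCODE M21 transcript with the longest open reading frame, and the capitals mark the codon at the place of the catalytic glutamate of the active chitinases.
Chia1: gatggactggacctggactggGAA
Chit1: gatggccttgaccttgactggGAG
Chil1: gatgggctggatctcgcctggCTC
Chil3: gatggcctcaacctggactggCAG
Chil4: gatggcctcaacctggactggCAG
GAA and GAG both encode glutamate, and CAG and CTC do not. Counted from the first base of the start codon, the stretch begins at base 466 in Chia1, 424 in Chil1 and 397 in Chit1, Chil3 and Chil4.

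Chil3 and Chil4 read the same over that stretch, and this near-identity bears on what a Chil3 value counts. Over 100 coding bases (361 to 460) the transcripts differ at 1 base, in capitals.
Chil3: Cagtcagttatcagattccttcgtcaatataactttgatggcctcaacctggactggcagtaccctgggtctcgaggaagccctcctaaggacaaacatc
Chil4: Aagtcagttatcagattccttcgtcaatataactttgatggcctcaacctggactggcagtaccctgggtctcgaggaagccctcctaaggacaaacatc
Their coding sequences were 94.4% identical, against 60.2% between Chil3 and Chia1 and 52.05% between Chil3 and Chil1. Of the windows of 50 bases along the Chil3 transcript, 18.5% also occur in the Chil4 transcript, and this falls to 8.53% for 75 bases and 3.75% for 100 bases. Neither the read length nor the treatment of reads with several matches is stated in the sources used here. Reads of Chil3 and Chil4 may therefore be shared or lost, and the Chil3 level is uncertain to that extent.

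The 4 measured genes lie in 3 places of the genome (mm10, with positions from GENCODE M21). Chia1 (ENSMUSG00000062778) lies on the plus strand at chr3:106113229-106132120, and Chil3 (ENSMUSG00000040809) on the minus strand at chr3:106147554-106167564, with 15433 bases between them. Chil4 lies on the minus strand at chr3:106201490-106219507, also beside Chil3. Chil1 (ENSMUSG00000064246) is at chr1:134182176-134190181, next to Chit1 at chr1:134111242-134151540, both on the plus strand. Retnla (ENSMUSG00000061100) is at chr16:48842551-48844461 on the plus strand, 28159 bases before its relative Retnlg.

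Chil3 was lower in the 2 females labelled knockout than in the other 4 libraries. Its levels were 279, 224 and 238 CPM in libraries 1, 2 and 3 labelled wild type, and 58.4, 64.5 and 231 CPM in libraries 1, 2 and 3 labelled knockout. The male labelled knockout lay among the libraries labelled wild type, so the labels overlap over all 6 libraries, whereas the females do not overlap. The means were 247 ± 28.4 CPM (SD, n = 3) for the label wild type and 118 ± 97.8 CPM (SD, n = 3) for the label knockout. Females labelled wild type averaged 251 CPM and females labelled knockout 61.5 CPM, a 4.09-fold difference in mean CPM. The lower female values stand on an estimated 1302 and 1779 reads, with exact 95% Poisson intervals of 55.3 to 61.6 and 61.6 to 67.6 CPM. Such intervals cover counting error only.

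**Figure D1:**
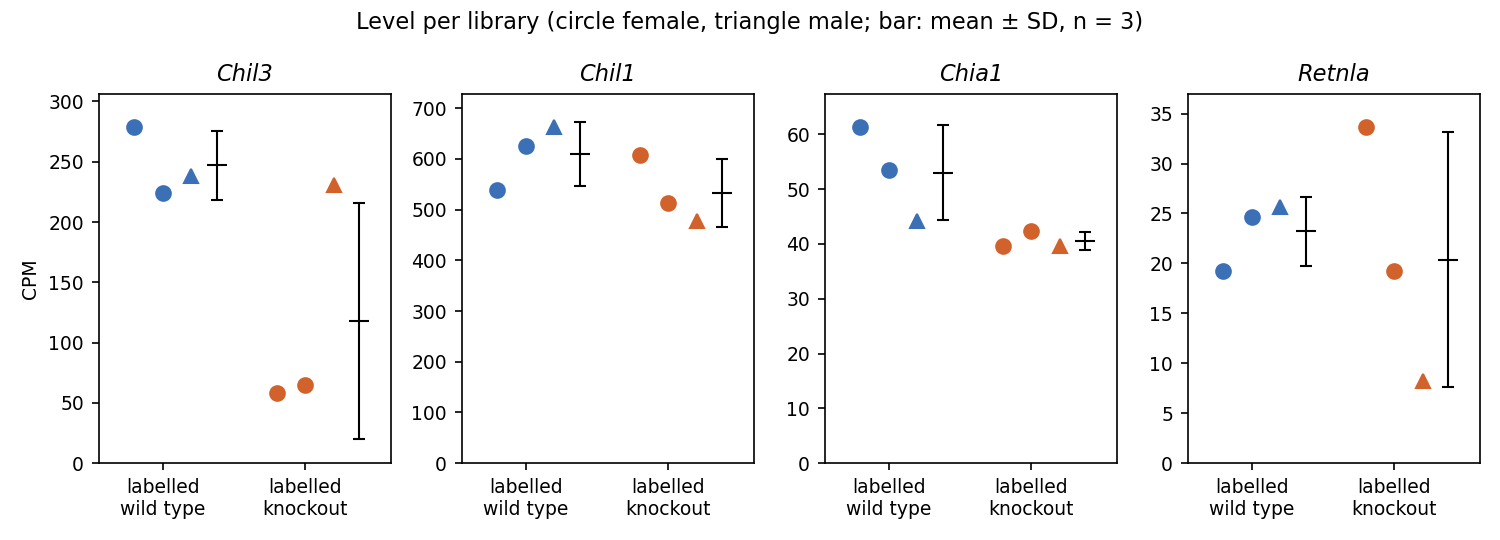
CPM of Chil3, Chil1, Chia1 and Retnla (vertical axes from 0, each with its own range) in the libraries labelled wild type and labelled knockout; circles are females, triangles are males, and bars give the mean ± SD (n = 3). For Chil3 the 2 females labelled knockout sit at 58.4 and 64.5 CPM and the other 4 libraries between 224 and 279 CPM, and for Retnla the male labelled knockout sits lowest at 8.23 CPM.

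Over all 6 libraries, with sex as a second term, the Chil3 log2 difference (labelled knockout minus labelled wild type, on log2(CPM + 0.5)) was -1.36 (SE 0.35) and did not pass the threshold of an adjusted p under 0.05 (limma adjusted p = 0.775). Between genotype labels 0 of the 4 genes passed, and 0.0115% of the 17382 genes tested did; at an unadjusted p under 0.05, 2 of the 4 (Chil3 and Chia1) passed, beside 5.13% of all genes tested. Within the 4 females the Chil3 log2 difference was -2.02 (SE 0.13, limma adjusted p = 0.000469). Chil3 alone of the 4 genes passed there, beside 0.0406% of 17234 genes. At an unadjusted p under 0.05, 2 of the 4 (Chil3 and Chia1) passed in the females, beside 2.69%. Chil3 had the smallest p but one in that fit. The call was also made without library 3 labelled wild type (limma adjusted p = 0.00205) or without library 3 labelled knockout (0.00137), since a lone male then leaves the label difference to the females. Without any one female the fit of both sexes did not make it, nor did that fit with all 6 libraries. The females alone were not refitted with a female left out.

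The 2 males did not show the difference that the females showed. Chil3 was at 238 CPM for the label wild type and 231 CPM for the label knockout in these males, the latter 3.76-fold above the mean of the females of its label. The interaction term, which is the label difference in males minus that in females, was 1.97 on the log2 scale (SE 0.22, limma adjusted p = 0.00408). Of the 4 genes, 1 (Chil3) passed this test, beside 2.54% of all genes tested; at an unadjusted p under 0.05, 2 of the 4 (Chil3 and Retnla) passed, beside 17.9%. With 1 male per label the spread of this test comes from the females, and sex cannot be told apart from whatever else set these 2 lungs apart. With no filter on low values the Chil3 term kept its size and missed the threshold (limma adjusted p = 0.119), and 0 of 21900 genes passed there. Between sexes (males minus females), with genotype label as a second term, the Chil3 log2 difference was 0.92 (SE 0.37, limma adjusted p = 0.29). None of the 4 genes passed there (0 of 4), beside 0.834% of all genes tested, and at an unadjusted p under 0.05, 1 of 4 (Chil3) passed, beside 15.3%. Without library 3 labelled wild type the Chil3 sex difference was 1.90, and without library 3 labelled knockout it was -0.07. Each of these values rests on 1 male.

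The summed markers of alveolar macrophages, the lung's main source of Chil3, were nearly level across the libraries, but their mean log2 level was less so. The 15 alveolar macrophage markers summed to 363 to 419 CPM in the libraries labelled wild type and to 378 to 391 CPM in those labelled knockout, and none was without a read in all libraries. In the females labelled knockout the sums were 381 and 391 CPM. A sum is weighted towards its highest genes. The mean log2 level of the 15 markers was 3.97, 3.89 and 3.99 in libraries 1, 2 and 3 labelled wild type. It was slightly lower, at 3.71, 3.81 and 3.87, in libraries 1, 2 and 3 labelled knockout. Relative to the mean log2 level of these markers, Chil3 was 3.92 to 4.15 log2 units higher in the libraries labelled wild type, 2.17 and 2.22 in the females labelled knockout, and 3.98 in the male labelled knockout. Of this list, Car4 (also a gene of lung capillaries) and the mannose receptor Mrc1 had the highest levels. The means for the labels wild type and knockout were 118 and 125 CPM for Car4 and 53.4 and 61.4 CPM for Mrc1. Both were higher under the label knockout, whereas the mean log2 level of the 15 markers was lower, so this pair does not stand for the list. In bulk tissue, fewer cells of a type and less RNA per cell cannot be told apart.

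Chil3 is also made by monocytes and neutrophil precursors, and the summed monocyte and neutrophil markers were higher in the males than in the females. The 7 inflammatory monocyte markers summed to 143 to 224 CPM in the females, and were at 390 and 628 CPM in the males labelled wild type and knockout. S100a8 and S100a9, the calprotectin subunits of neutrophils, reached 1467 and 1278 CPM in the knockout-labelled male, 54.2 and 79.5 CPM in the other male, and at most 42.9 and 57.8 CPM in the females. The 9 interstitial macrophage markers summed to 367 to 446 CPM in the females, and to 956 and 485 CPM in the males labelled wild type and knockout. Their mean log2 level was 4.55 to 4.84 in the females and 6.03 in the male labelled wild type. In the male labelled knockout it was 4.42, below the females, so that its higher sum was not shared by the list. Erythroid markers summed to 852 to 1608 CPM in the females, and were at 2768 and 5898 CPM in males 3 labelled wild type and knockout. The part of these cells in the Chil3 level of the male labelled knockout was not tested.

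**Figure D2:**
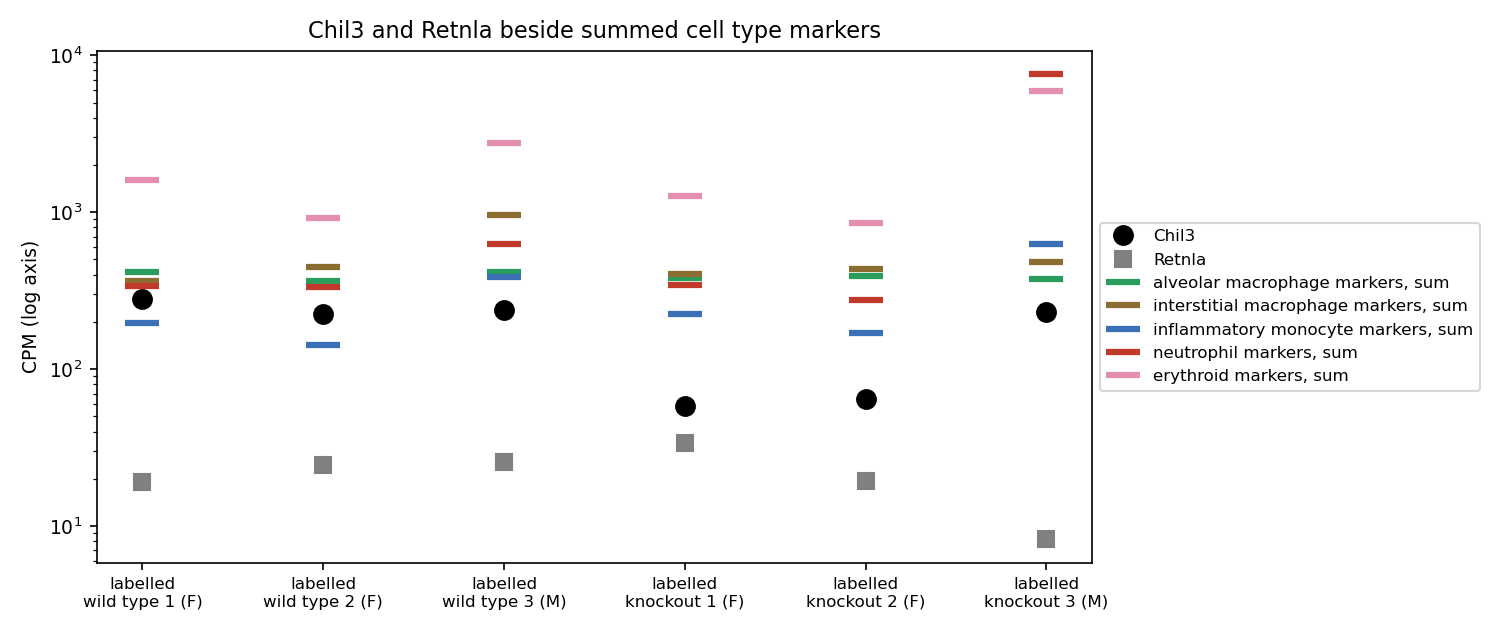
CPM on a log axis of Chil3 (black circles) and Retnla (grey squares) in each library, beside the summed CPM of 5 lists of cell type markers (coloured bars); F and M mark females and males. Alveolar macrophage markers stay between 363 and 419 CPM, while neutrophil markers reach 7596 CPM in the male labelled knockout.

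Chil1, at the highest level of the 4 genes per exon length, differed little between libraries. Its levels were 539, 626 and 663 CPM in libraries 1, 2 and 3 labelled wild type and 607, 514 and 478 CPM in libraries 1, 2 and 3 labelled knockout. The labels overlap, and the means of 609 ± 63.5 and 533 ± 66.7 CPM (SD, n = 3 each) differ by about the spread within a label. The log2 difference between labels was -0.19 (SE 0.14, limma adjusted p = 0.775) and the interaction term -0.41 (SE 0.22, limma adjusted p = 0.37). In the male labelled knockout, with its high neutrophil markers, Chil1 was at its lowest.

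Chia1, the active chitinase, was slightly lower in each library labelled knockout. Its levels were 61.3, 53.6 and 44.1 CPM in libraries 1, 2 and 3 labelled wild type and 39.7, 42.4 and 39.5 CPM in libraries 1, 2 and 3 labelled knockout. All 3 libraries of one label lay below all 3 of the other, although the nearest values were 42.4 and 44.1 CPM; 5.89% of all genes tested separated the labels in this direction, and 9.52% in either. Chia1 alone of the 4 genes did so. The means were 53.0 ± 8.61 and 40.5 ± 1.6 CPM (SD, n = 3 each). The log2 difference of -0.37 (SE 0.13) did not pass (limma adjusted p = 0.775), nor did that in the 4 females, which was -0.48 (SE 0.13, limma adjusted p = 0.9999). The summed markers of the epithelia that can hold Chia1 were lower in the males. The 8 alveolar type 2 cell markers summed to 19278 to 21015 CPM in the females against 16472 and 14957 CPM in the males labelled wild type and knockout. The 7 club and secretory cell markers summed to 24930 to 30577 CPM against 18531 and 13951 CPM. That second sum is mostly Scgb1a1, at 9396 to 24282 CPM over the libraries. The mean log2 level of the 7 was 8.28 to 10.2 in the females, with the males inside that range at 9.04 and 9.18. The part of these epithelia in the Chia1 values was not tested.

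Retnla did not follow Chil3. Its levels were 19.3, 24.7 and 25.7 CPM in libraries 1, 2 and 3 labelled wild type and 33.6, 19.3 and 8.23 CPM in libraries 1, 2 and 3 labelled knockout. A female labelled knockout held the highest value and the male of that label the lowest, so the labels overlap fully. The male value stands on an estimated 211 reads, with an exact 95% Poisson interval of 7.15 to 9.41 CPM, and was 3.22-fold below the mean of the females of its label. The means were 23.2 ± 3.45 and 20.4 ± 12.7 CPM (SD, n = 3 each), with a log2 difference of -0.38 (SE 0.37, limma adjusted p = 0.807) that turned to 0.22 (SE 0.25) in the 4 females. The interaction term of -1.80 (SE 0.46) did not pass (limma adjusted p = 0.086). It passed without library 2 labelled knockout (-2.20, limma adjusted p = 0.0292). The sex difference was -0.67 (SE 0.40, limma adjusted p = 0.473). It was -1.57 without library 3 labelled wild type and 0.23 without library 3 labelled knockout, each resting on 1 male. Adipocyte markers, listed because fat also makes Retnla, summed to 103 to 212 CPM in the females, and the males were inside that range at 149 and 157 CPM. Their mean log2 level was 2.68 to 3.34 in the females. It was 3.44 in the male labelled wild type, above the females, and 2.70 in the male labelled knockout.

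**Figure D3:**
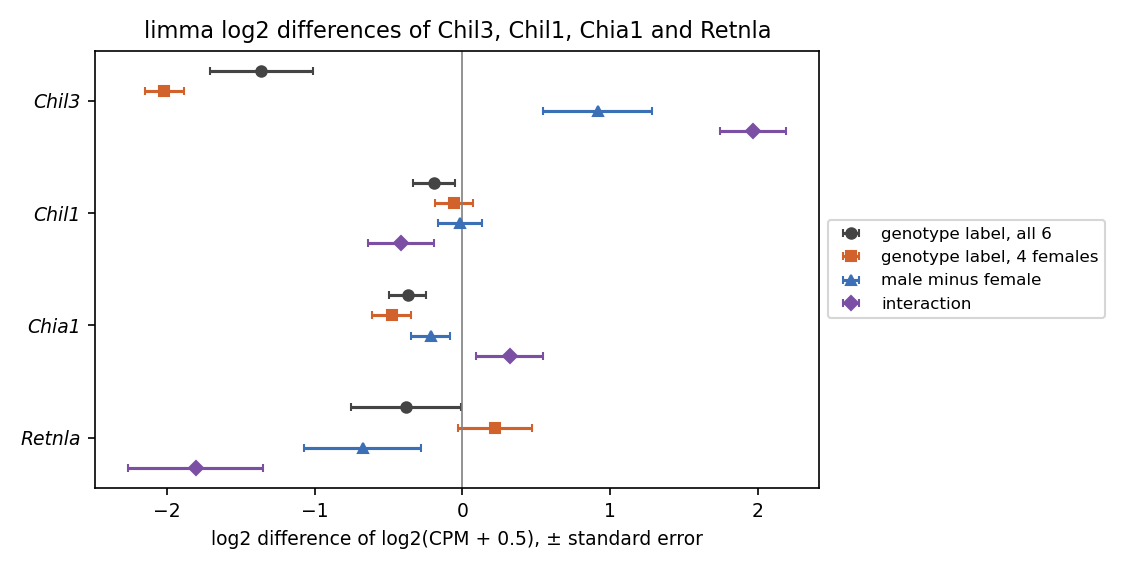
Log2 differences of log2(CPM + 0.5) from limma (horizontal axis, bars give ± 1 standard error) for Chil3, Chil1, Chia1 and Retnla, between genotype labels over all 6 libraries, between labels in the 4 females, between sexes, and for the interaction of label and sex. Chil3 reaches -2.02 in the females and 1.97 for the interaction, and Retnla -1.80 for the interaction.

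As a set, the 4 genes had a median log2 difference between labels of -0.38, beside -0.06 over all genes tested, and for the interaction a median of -0.05 beside -0.13. All 4 were below 0 between labels, beside 59.9% of all genes tested, and 2 of 4 for the interaction. In the 4 females Retnla was above 0, at 0.22. Quantile normalization and median centring moved the median of all genes to 0.01 and 0.05 between labels and to 0.03 and 0.09 for the interaction. Chil3 stayed far from these shifts, with label differences of -1.38 and -1.26 and interaction terms of 1.91 and 2.20.

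Levels between genes can be set side by side only per exon length. Per 1000 exon bases, Chil1 ranged from 171 to 236 CPM, Chil3 from 35.8 to 171 CPM, Retnla from 13.7 to 56.2 CPM and Chia1 from 20.8 to 32.2 CPM. Chil1 was first in all 6 libraries. In the libraries labelled wild type and the male labelled knockout it stood only 1.13 to 1.63 times above Chil3, but 6.06 and 4.64 times above it in females 1 and 2 labelled knockout. In female 1 labelled knockout Chil3 stood below Retnla, with a ratio of 0.637 per exon length, whereas this ratio was 10.3 in the male of that label. Retnla and Chia1 changed places between libraries, with ratios of 0.661 to 2.69, and do not differ beyond their spread.

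Genes whose pattern over the 6 libraries was most like that of a member are named as a description over 6 shared libraries. For Chil3 the closest of 16026 genes with a mean of at least 1 CPM, by Pearson correlation of log2 levels, were Cnot11 (0.977), a subunit of the CCR4-NOT deadenylase, Gid8 (0.97), a subunit of a ubiquitin ligase, Klhl30 (0.968), Angptl6 (0.967), an angiopoietin-like protein, and Stx18 (0.965), a syntaxin of the endoplasmic reticulum. A correlation over 0.9 was reached by 55 genes. The differences of these genes were smaller than that of Chil3: Cnot11 was at 24.5 and 24.2 CPM in females 1 and 2 labelled knockout and at 30.3 to 31.7 CPM in the other libraries. None of the 5 is on a macrophage, monocyte or neutrophil list used here, but each such list holds at most 20 genes, so little can be read from that. The closest to Chil1 were Tex11, Slc26a4 and Cd55os (0.985 to 0.992), to Chia1 Serpinb8, Fcgrt and Apex2 (0.984 to 0.994), and to Retnla Mtfmt, Nptx2 and Sult2b1 (0.988 to 0.997).

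In the fits of all 6 libraries no tested neighbour of Chil3 on the chromosome had a difference as large. Within 250 kb of it, 12 other genes were in the table and 8 were tested. Of these 0 passed between labels or for the interaction, and their label differences ran from -0.40 to 0.26, Chia1 included. Around Retnla the picture was uneven: Retnlg, a resistin-like gene of neutrophils, reached 468 CPM in the knockout-labelled male, against 8.51 to 17.3 CPM in the other 5 libraries (interaction term 4.66, SE 0.43, limma adjusted p = 0.00142). Retnla and Retnlg, which lie side by side, therefore stood at opposite ends in that library.

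Short stretches before the start of Retnla, Chil3 and Chil4 are shown because these genes are the known IL-4 and IL-13 targets of the set. The sequences are from RefSeq (GRCm38.p6), 60 bases each, 5′ to 3′ on the gene's strand, and the capitals mark letters matching TTCNNNNGAA (the STAT6 spacing) and TTGCNNAA (C/EBP-like) in Retnla, and TTCNNNGAA (the spacing of other STAT factors) in Chil3 and Chil4.
Retnla: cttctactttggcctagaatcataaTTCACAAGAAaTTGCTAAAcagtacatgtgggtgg
Chil3: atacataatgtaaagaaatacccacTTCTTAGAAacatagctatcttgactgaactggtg
Chil4: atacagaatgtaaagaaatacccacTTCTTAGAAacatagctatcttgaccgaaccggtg
These lie at chr16:48842439-48842498 (plus strand), chr3:106167702-106167761 and chr3:106219645-106219704 (minus strand). In Retnla the STAT6-spaced letters begin 145 bases before the RefSeq start and 87 before the GENCODE start given above, which lies 58 bases upstream of it, with 1 base between them and the C/EBP-like letters. The marked letters begin 172 bases before the GENCODE start of both Chil3 and Chil4. Both strands of 300 bases (250 before to 50 after the RefSeq start) were searched in 32851 promoters. TTCNNNNGAA was in 6.95% of them and, among the 6 named genes, in Retnla alone. TTCNNNGAA was in 8.3% and, of the 6, in Chil3 and Chil4. TTGCNNAA was in 10.8%, and of the 6 in Retnla and Chil4. The PU.1-like letters GAGGAAG were in 13.6% and of the 6 in Retnla, and TATAAAA was in 5.48% and of the 6 in Chil3, Chil4, Chia1 and Retnla. A match describes letters only.

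Among related genes, from 7 lists with 59 genes of which 53 were in the table and 47 were tested, 0 passed between genotype labels. For the interaction 5 of 47 passed, 2 higher and 3 lower, beside 0.702% and 1.84% of all genes tested; with no filter on low values 0 did. Between sexes 1 of 47 passed, higher in males, and 0 lower, beside 0.627% and 0.207%. The median label difference of the 47 was -0.11 and the median interaction term -0.40.

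Other genes of the chitinase and resistin families were low or level, apart from Retnlg. Of the chitinase family 3 of 5 genes were tested and 0 passed. Chid1, a secreted chitinase-domain protein, was at 19.9 ± 1.92 and 19.4 ± 1.93 CPM, and Ctbs, a lysosomal chitobiase, at 17.2 ± 0.626 and 16.1 ± 2.45 CPM in the labels wild type and knockout (SD, n = 3 each). Retnlg was the only one of 2 resistin family genes to pass, in the interaction.

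Il4, Il5 and Il25, cytokines of type 2 immunity, were near the lowest detectable level in these whole lungs. Il13 and Il9 were not analysed here. Il4, Il5 and Il25, named after their values were seen, were at most 0.538, 0.640 and 0.342 CPM, and reached the 3-read level in 2, 5 and 2 of 6 libraries. Among the alarmins, Il33 was at 73.1 ± 10.7 and 64.8 ± 9.92 CPM and Tslp at 2.94 ± 0.784 and 2.25 ± 1.46 CPM in the labels wild type and knockout (SD, n = 3 each); neither passed. Of 10 tested genes for receptors of IL-4, IL-13 and the alarmins, for their kinases and for STAT6, 1 passed, in the interaction alone. This was Il4ra, for the receptor chain that IL-4 and IL-13 share, which reached 335 CPM in the knockout-labelled male and 119 to 151 CPM in the other 5 libraries (interaction term 0.96, SE 0.18, limma adjusted p = 0.0332). It missed the threshold without female 1 or female 2 labelled knockout (limma adjusted p = 0.079 and 0.116). Eosinophil markers summed to 3.0 to 5.55 CPM in the 6 libraries, mast cell and basophil markers to 3.0 to 8.15 CPM, and markers of the lymphocytes that make IL-5 and IL-13 to 91.4 to 138 CPM. In the last list Rora alone was at 61.6 to 80.8 CPM and Gata3 at 8.70 to 18.8 CPM, so that sum is mostly 1 gene. Of the genes for receptors and partners of Chil1, Lgals3 (galectin-3) was higher in males, at 173 and 150 CPM against 92.2 to 107 CPM in the females (log2 difference 0.73, limma adjusted p = 0.0335). It missed the threshold without any one of the 4 females (limma adjusted p = 0.0712 to 0.169). The other 3 of these 4 genes did not pass between labels, between sexes or for the interaction.

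Of 19 tested genes of alternatively activated macrophages, other than the members, 0 passed between labels and 3 passed, all lower, for the interaction. Each of the 3 was highest in the male labelled wild type. The chemokine Ccl8 reached 19.6 CPM in that male, against 0.117 CPM in the other male (about the level of 3 reads) and 0.761 to 1.84 CPM among females (interaction, limma adjusted p = 0.011). Socs1, an inhibitor of cytokine signalling that interferon also induces, had levels of 46.6 and 1.99 CPM in males 3 of the labels wild type and knockout and of 3.92 to 11.01 CPM among females (interaction, limma adjusted p = 0.0218, and 0.0525 without female 1 labelled knockout). Egr2, a transcription factor, had levels of 66.0 and 9.08 CPM in these 2 males and of 10.3 to 20.4 CPM among females (interaction, limma adjusted p = 0.0466, and 0.0896 without female 2 labelled knockout). The list's median label difference was -0.51, with 17 of 19 below 0, beside 59.9% of all genes tested. In the 4 females it was -0.18, with 15 of 18 tested below 0, beside a median of 0.00 and 50.8% over all genes tested there, and 0 of the 18 passed. Of 7 tested airway genes of type 2 inflammation 0 passed, with a median label difference of 0.14 and 3 of 7 below 0. In the 4 females their median was 0.37, with 0 of 8 tested below 0, and 0 of the 8 passed. This direction was opposite to that of the macrophage list. The mucin Muc5b ranged from 80.3 to 527 CPM and Fcgbp from 5.61 to 18.2 CPM, both extremes being within the females labelled wild type.

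**Figure D4:**
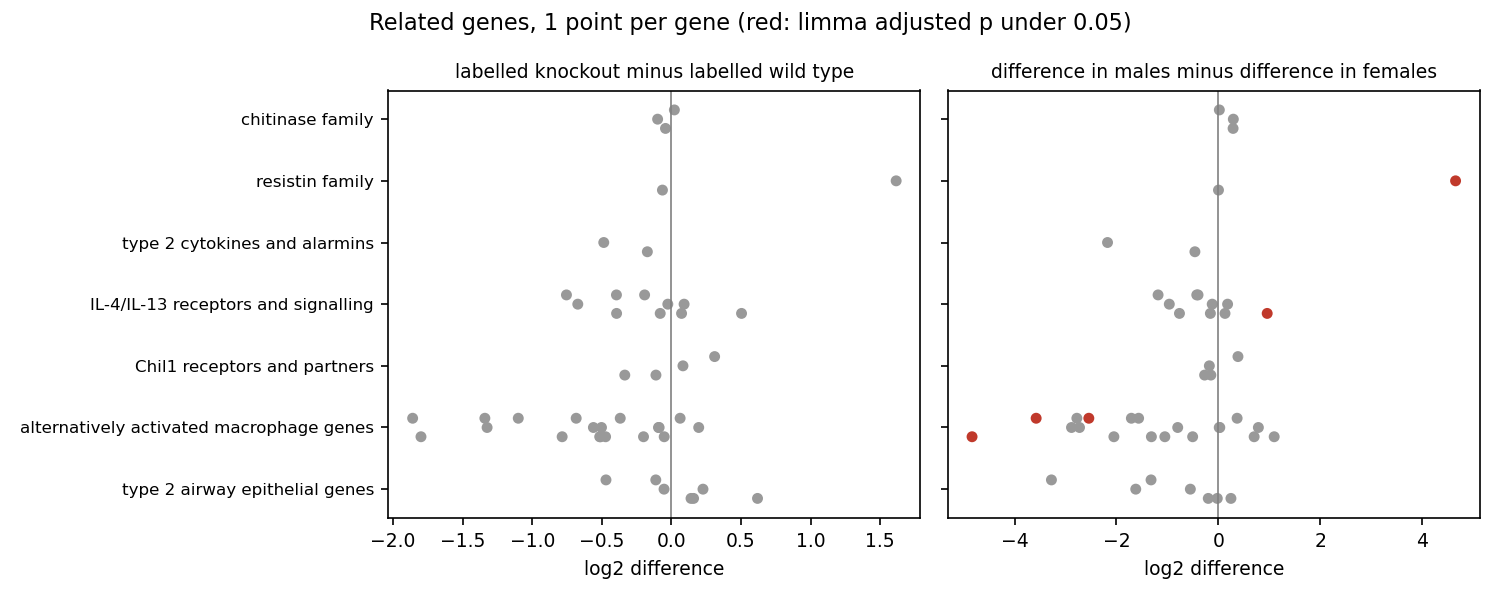
Log2 differences from limma (horizontal axes) of 47 related genes in 7 lists, 1 point per gene, between genotype labels (left) and for the interaction of label and sex (right); red points have an adjusted p under 0.05. There are 0 red points on the left and 5 on the right.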

How the data were processed

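Gene expression was measured in 6 mouse lung libraries. The deposited values are CPM per gene with 0.0001 added to each, as the column sums show; per the submitters' processing notes the build was mm10 and the tools TopHat2 and Partek, while the sources used here give no versions, annotation, filters or strand setting. Of values worth up to 100 reads, 82.4% to 83.6% per library were whole multiples of the smallest step within 0.05, too few to rebuild read numbers for a count test; limma 3.58.1 (R 4.3.3, variance trend) was run on log2(CPM + 0.5) over 17382 genes with a mean of at least 0.5 CPM, with genotype label and sex as terms and, separately, their interaction. Fold differences on this scale understate changes of low genes. Tests were two-sided with Benjamini-Hochberg adjustment over all genes tested, at 0.05, and the fit was tested on simulated data. Tables were made with pandas 2.3.3 and numpy 2.4.6 in Python 3.11.15, and figures with matplotlib 3.10.9. A total of 99.75% of gene identifiers matched GENCODE M21; sequences came from it and from RefSeq, where all 6 named genes matched a promoter. The members and lists were chosen with earlier results of these data known. Named genes were the members, Cyp1b1, up to 4 genes of each related list past a test (otherwise the 2 of highest level), the 2 highest of each cell type list, and genes of like pattern (5 for Chil3, 3 for others; predicted genes skipped); not all of these are printed. Alternatives were other pseudocounts, filters and scalings, dropping the second term, the 4 females alone, and leaving out each library.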

Additional observations from a re-analysis of the deposited data

Results flagged for a closer look

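The label difference in males was not that in females, by limma's interaction term, for Chil3 (1.97), Retnlg (4.66), Il4ra (0.96), Ccl8 (-4.83), Socs1 (-3.58) and Egr2 (-2.54), on the log2 scale. Each rests on 1 male per label. In Chil3 the difference lay in the females, whereas for Retnlg and Il4ra mainly the male labelled knockout stood apart, and for Socs1 and Egr2 mainly the male labelled wild type. The male labelled knockout was also below all females for Socs1 (1.99 against 3.92 to 11.01 CPM) and for Egr2 (9.08 against 10.3 to 20.4 CPM). For Ccl8 both males stood apart, the one labelled wild type at 19.6 CPM and the one labelled knockout at 0.117 CPM, about 3 reads, on either side of 0.761 to 1.84 CPM in the females.

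Within the 4 females, 1 sample lay far from the other 3 for Chid1 (17.3 CPM) and for Ctbs (13.3 CPM), in both genes female 1 labelled knockout. A check of this kind picks out about 1 in 20 groups by chance.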

How the results depend on the processing

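The number of members past the threshold between labels was 0, and 1 (Chil3) in the 4 females; leaving out 1 library gave 0 to 1. Between sexes it was 0, and 0 without any one female, beside 0.121% to 0.425% of all genes tested in those fits. With a male left out the sex term rests on 1 male, and no count is given for it. For the interaction it was 1, 0 with no filter on low values, and 1 to 2 when 1 library was left out. For related genes the count between sexes was 1, 2 with quantile normalization and 2 with median centring, and 0 to 6 when 1 library was left out; for the interaction it was 5, 0 with no filter on low values, and 3 to 8 when 1 library was left out. With the other settings the last count was 4 with quantile normalization, 6 with a pseudocount of 1, 6 with a mean of at least 1 CPM and 7 with median centring, and no count differed from its reported value under a setting not listed here. The Chil3 interaction term ran from 1.91 to 2.20 over 6 other settings and from 1.81 to 2.13 with 1 female left out. Signs turned for Retnla between labels (0.22 in the 4 females; -0.78 to 0.22 with 1 library left out), for the sex difference of Chil1 (0.0321 with median centring; -0.22 to 0.19 with 1 library left out), and for the sex differences of Chil3 (-0.0672 to 1.90) and Retnla (-1.57 to 0.23) with 1 library left out, both ends of these 2 ranges being without a male. Of the 6 related genes past a test, the 5 of the interaction missed the threshold with no filter on low values, and Egr2 also with a pseudocount of 0.1 (limma adjusted p = 0.0569) and quantile normalization (0.0699). The cause was not tested. Where a lone male remained it was assumed to vary like the females. No paired analysis was possible because the labels give no replicate numbers. Depth limits Il4, Il5 and Il25 most; for Chia1 in the libraries labelled knockout the counting intervals are wider than the spread between libraries.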
